A study of Mus musculus with 6 samples.

Results

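The AP-1 family was followed here through 10 genes, Fos, Fosb, Fosl1, Fosl2, Jun, Junb, Jund, Atf3, Batf and Maff, out of 49585 genes in each count file. They were found by matching Ensembl gene identifiers to these symbols. The family was selected on a measured value, the higher count of Fos in CD38-positive than in CD38-negative haematopoietic stem cells (HSCs), so the differences of its members between these populations are given as a description with no test. HSCs of untreated C57BL/6 mice, 8 to 16 weeks old, had been sorted from bone marrow as lineage-negative Kit+ Sca-1+ CD48- CD150+ CD34- CD201+ cells and split into a CD38-high population, labelled CD38 pos, and a CD38-low population, labelled CD38 neg. Bulk RNA was sequenced from 3 libraries of each population. Every library pooled the cells of 10 mice, and the series' design text matches the libraries in 3 pairs of 1 CD38 pos and 1 CD38 neg library, without saying whether a pair came from the same animals.

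AP-1 is a transcription factor built from a pair of basic leucine zipper (bZIP) proteins. Proteins of the Fos group cannot pair with each other and bind DNA only with a Jun protein or another bZIP partner, while Jun proteins can also pair among themselves. Most of these genes are immediate early genes: their mRNA appears within minutes of a growth factor, stress or calcium signal and is quickly degraded. CD38, the surface protein used for the sort, is an enzyme that turns NAD into calcium-releasing messengers, and the series asks how its activity relates to HSC dormancy, a state of prolonged quiescence.

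The sequence upstream of the start site carries part of the calcium and stress response of these genes, through sites for the CREB/ATF and AP-1 proteins. RefSeq windows on GRCm38.p6 were found for 9 of the 10 members. They are shown for Fos and Atf3, the members with the largest differences between the populations, and for Jun, which did not accompany them in every pair. Each is the 250 bases before the RefSeq start, written 5′ to 3′ on the strand of the gene, with matches to TGACGT (a core of the CREB/ATF site), TGANNTCA (a form of the longer AP-1 and CREB/ATF site) and TATAAA (the TATA box) in capitals. The windows lie at chr12:85473640-85473889 (plus strand) for Fos, chr1:191183334-191183583 (minus strand) for Atf3 and chr4:95052223-95052472 (minus strand) for Jun. The last 7 bases of the Atf3 window lie in an annotated Atf3 exon.
Fos: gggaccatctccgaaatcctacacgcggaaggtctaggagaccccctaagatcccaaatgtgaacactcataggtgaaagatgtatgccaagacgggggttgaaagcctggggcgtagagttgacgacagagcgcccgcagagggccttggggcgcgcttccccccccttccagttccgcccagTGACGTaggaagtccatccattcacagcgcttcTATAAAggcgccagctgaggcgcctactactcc
Atf3: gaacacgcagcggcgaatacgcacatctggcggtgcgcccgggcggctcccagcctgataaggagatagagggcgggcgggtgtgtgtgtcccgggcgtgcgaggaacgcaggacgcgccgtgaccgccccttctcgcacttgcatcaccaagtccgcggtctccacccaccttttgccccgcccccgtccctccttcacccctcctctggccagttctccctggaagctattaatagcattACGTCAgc
Jun: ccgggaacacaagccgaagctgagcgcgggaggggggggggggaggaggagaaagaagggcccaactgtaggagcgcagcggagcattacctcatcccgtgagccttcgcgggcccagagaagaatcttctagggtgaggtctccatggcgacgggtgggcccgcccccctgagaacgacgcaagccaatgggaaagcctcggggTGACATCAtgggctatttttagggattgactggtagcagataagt

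In the Fos window TGACGT lay 66 to 61 bases before the start and TATAAA 33 to 28 bases before it. The Atf3 window held TGACGT on the other strand, read as ACGTCA, 8 to 3 bases before the start. The Jun window held TGACATCA, a match to TGANNTCA, 45 to 38 bases before the start. Both strands were searched, and TGACGT overlaps TGANNTCA where the site is TGACGTCA. The 9 members have 11 windows, 3 of them for Maff. TGACGT was present in 4 of the 11, those of Fos, Atf3 and Batf and 1 of Maff, and in 6.47% of the 32851 windows of all genes. TGANNTCA was present in 4 of the 11, those of Jun and Jund and 2 of Maff, and in 11.9% of all windows, and TATAAA in 1 of the 11, that of Fos, and in 12.4%. The Jund window ends at 70697738, ahead of the annotated start of the gene at 70698949. The shorter AP-1 site TGANTCA (6.75% of all windows) and the CArG box bound by serum response factor (1.47%) matched in 0 of the 11. A match describes the letters only, and no match says only that they are not in this window.

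Fos, whose protein needs a partner to bind DNA, was higher in the CD38 pos library of every pair and by a similar amount each time. The gene (ENSMUSG00000021250, GRCm38 chromosome 12, 85473890 to 85477273, plus strand) had 1102, 906 and 1535 reads in CD38 pos replicates 1, 2 and 3 and 450, 421 and 519 in their CD38 neg partners. As CPM, the count as a share of the scaled library total, these were 66.1, 51.3 and 84.7 against 26.8, 23.4 and 31.7. The lowest CD38 pos library was above the highest CD38 neg library. The paired log2 differences of 1.30, 1.13 and 1.41 had an SD of 0.14, the narrowest spread of the 9 members tested. The log2 fold change was 1.28 (SE 0.20), or 2.43-fold, and lay between 1.22 and 1.35 when any pair was left out. Marker genes of other cells, given below, were also higher in CD38 pos in all 3 pairs in part, beside 13.2% of all tested genes. These were 4 of 8 tested endothelial, 1 of 8 tested stromal, 4 of 12 granulocyte and monocyte, and 3 of 10 dendritic cell and macrophage genes. The B and plasma cell, erythroid, megakaryocyte, and T and NK cell lists had 1 each. The sum of the dendritic cell and macrophage list was higher in 3 of 3 pairs and that of the stromal list in 2. The endothelial sum and the granulocyte and monocyte sum were each higher in 1.

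Atf3, a stress-induced bZIP gene whose product can pair with Jun proteins, was the member whose difference was as large as that of Fos, at a much lower level. It had 34, 34 and 73 reads in CD38 pos and 26, 11 and 12 reads in CD38 neg replicates 1, 2 and 3, which is 2.04, 1.92 and 4.03 CPM against 1.55, 0.61 and 0.73 CPM. The groups did not overlap, but the nearest libraries, CD38 pos replicate 2 and CD38 neg replicate 1, were close. The paired log2 differences were 0.37, 1.49 and 2.29, and the fitted value was 1.47 (SE 0.51). It was 2.06 without pair 1 and 0.97 without pair 3, a wider range than that of Fos.

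Fosl2, which encodes the Fos relative Fra-2, followed Fos in direction only. Its CPM values were 17.1, 14.9 and 18.3 in CD38 pos and 12.6, 14.4 and 14.1 in CD38 neg replicates 1, 2 and 3. All CD38 pos libraries were above all CD38 neg libraries, by as little as 14.9 against 14.4 CPM in pair 2. The paired log2 differences were 0.44, 0.05 and 0.37, with a fitted value of 0.29 (SE 0.24), and each fell short of that of Fos in the same pair by 0.86, 1.08 and 1.04.

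Fosb and Fosl1, the other Fos-group genes, did not accompany Fos and were near the limit of counting. Fosb had 7, 18 and 39 reads in CD38 pos and 6, 50 and 13 in CD38 neg replicates 1, 2 and 3. It was higher in CD38 pos in pair 3 by 1.32 on the log2 scale, lower in pair 2, at -1.35, and within 1 read in pair 1. Its fitted log2 fold change of 0.02 (SE 0.60) ranged from -0.83 without pair 3 to 0.94 without pair 2. Fosl1, which encodes Fra-1, had 4, 7 and 13 reads against 7, 12 and 13 reads. It was lower in CD38 pos in all 3 pairs after scaling, at -0.58, -0.61 and -0.13, although the counts in pair 3 were equal. Exons of Fosl1 and Ccdc85b overlap over 1163 bases, so these few reads are uncertain.

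**Figure D1:**
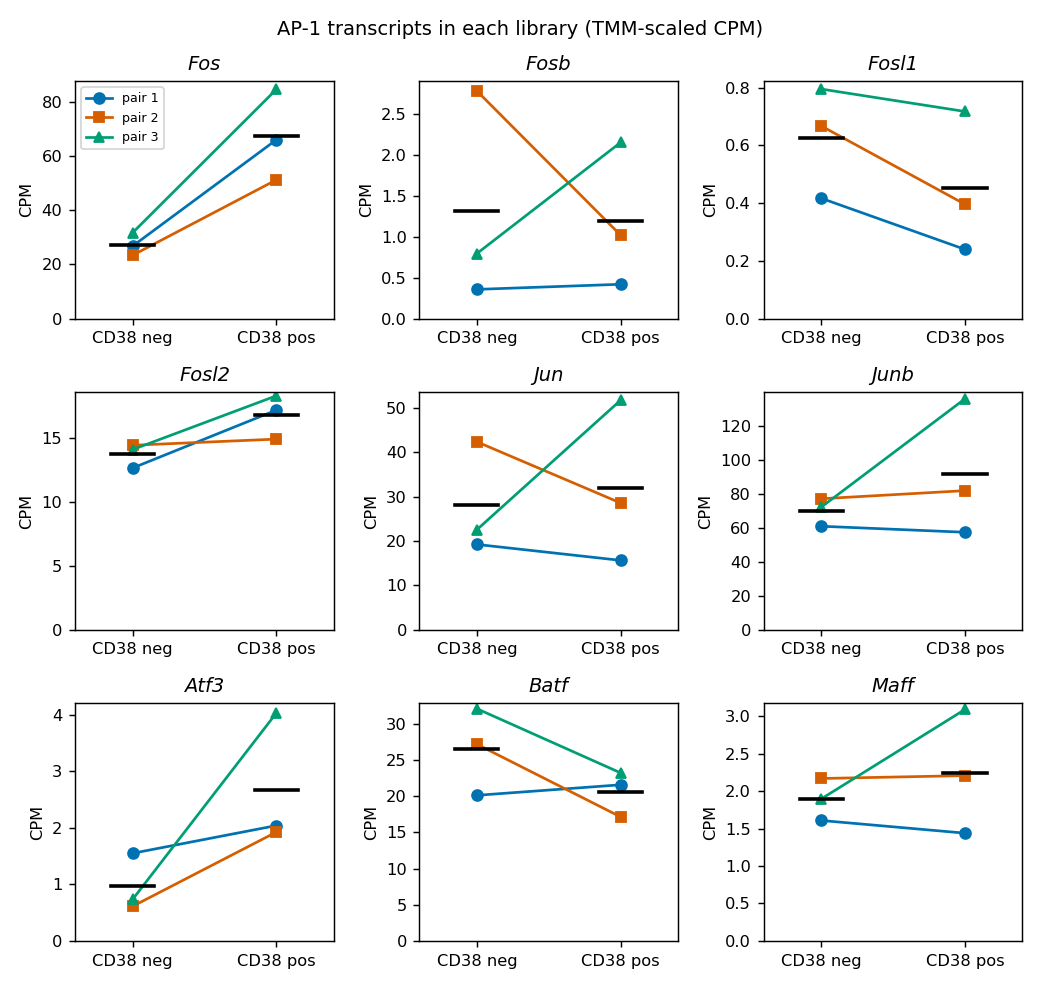
Level of each of the 9 AP-1 genes with reads, in CPM (vertical axes from 0, each on its own scale), in CD38 neg and CD38 pos libraries. Symbols joined by a line are the libraries of a pair and black bars are means of 3 libraries. The 3 Fos lines climb together, from 23.4 to 31.7 up to 51.3 to 84.7 CPM, while the lines of Jun and Fosb cross.

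The Jun group supplies the best known partners of Fos, and it split by pair. Jun (chromosome 4, 95049034 to 95052222, minus strand) had 15.6, 28.6 and 51.7 CPM in CD38 pos replicates 1, 2 and 3, against 19.2, 42.4 and 22.6 CPM in CD38 neg. It was lower in CD38 pos in pairs 1 and 2, at -0.30 and -0.57 on the log2 scale, and higher in pair 3, at 1.19. The fitted log2 fold change was 0.10 (SE 0.30) and became -0.44 without pair 3. The antisense gene Junos shares 232 exonic bases with Jun and had 69 to 156 reads per library; since the strand setting of the counting was not given in the sources used here, reads of the pair cannot be told apart there.

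Junb (chromosome 8, 84974484 to 84978718, minus strand), a Jun relative that often acts against proliferation, had 57.4, 81.9 and 136 CPM in CD38 pos and 61.0, 77.2 and 72.2 CPM in CD38 neg replicates 1, 2 and 3. The paired log2 differences were -0.09, 0.09 and 0.91. Pairs 1 and 2 were nearly level and the fitted value of 0.30 (SE 0.22) became -0.00069 without pair 3. Its exons overlap those of Prdx2 on the other strand over 173 bases, and Prdx2 had 5407 to 8134 reads per library.

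Jund, the third Jun gene, was listed at 0 in all 6 libraries. The antisense gene Gm11175, whose exons cover 877 of the 1668 exonic bases of Jund, was listed at 0 as well. No level or difference is given for it, and sums over the Jun group below hold Jun and Junb only.

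Batf and Maff are bZIP proteins without a transactivation domain of their own. Batf competes with Fos for Jun proteins and is known for its role in lymphocytes. It went the other way from Fos in pairs 2 and 3. Batf (chromosome 12, 85686669 to 85709087, plus strand) had 21.6, 17.1 and 23.2 CPM in CD38 pos and 20.1, 27.2 and 32.1 CPM in CD38 neg replicates 1, 2 and 3. The paired log2 differences were 0.10, -0.66 and -0.46, and the fitted value was -0.35 (SE 0.23). With unscaled library totals Batf was lower in CD38 pos in all 3 pairs. Maff, a small Maf protein, had 1.44, 2.21 and 3.09 against 1.61, 2.17 and 1.90 CPM, and its paired differences of -0.15, 0.02 and 0.67 resembled those of Junb.

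**Figure D2:**
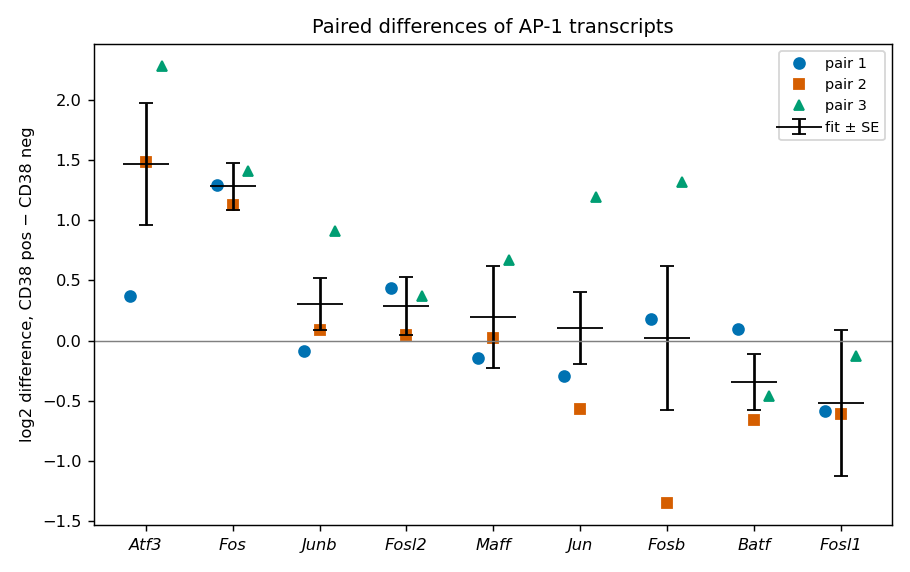
Log2 difference between CD38 pos and CD38 neg (vertical axis) of the 9 AP-1 genes tested, in order of the fitted value. Coloured symbols are the 3 pairs and black bars the fitted log2 fold change ± SE. For Fos the pairs lie between 1.13 and 1.41, whereas for Jun pair 3 (1.19) stands above 0 and pairs 1 and 2 (-0.30 and -0.57) below it.

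Counted over the family, 3 of the 9 tested members (Fos, Fosl2 and Atf3) were higher in CD38 pos in all 3 pairs, and 13.2% of the 14785 tested genes were. In 1 of 9 (Fosl1) CD38 pos was lower in all 3 pairs, as in 11.3% of all tested genes. In the same 3 members all CD38 pos libraries were above all CD38 neg libraries, which held for 3.33% of tested genes, and in 0 members were all below, against 3.19%. Fosl2 left the 3 with unscaled library totals, while Fos and Atf3 were higher in every pair under each scaling, filter and prior count tried. The family was selected on this contrast, so these counts describe it and nothing is read from them.

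A measure the selection did not use is the difference between the pairs, whichever the population. Of the 9 members, 6 (Fosb, Fosl1, Jun, Junb, Batf and Maff) had their lowest mean in pair 1. The mean of both libraries of a pair was 17.4, 35.5 and 37.2 CPM for Jun, 59.2, 79.5 and 104 CPM for Junb, and 0.39, 1.90 and 1.47 CPM for Fosb in pairs 1, 2 and 3. Fos had 46.4, 37.3 and 58.2 CPM, and Fosl2, at 14.9, 14.6 and 16.2 CPM, was the most even. In edgeR's quasi-likelihood test of the pairs, 0 of the 9 members passed an adjusted p-value of 0.05, against 0.115% of tested genes. The members nearest to it were Jun (adjusted p = 0.292), Fosb (adjusted p = 0.320) and Junb (adjusted p = 0.354); these 3 had an unadjusted p under 0.05, as did 13.5% of tested genes. DESeq2 and limma-voom also passed 0 members, but without pair 2 Jun and Junb passed in edgeR, and with no filter on low counts Jun did.

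The library that stood out within the family was CD38 pos replicate 3. It had the highest CPM of 6 of the 9 members (Fos, Fosl2, Jun, Junb, Atf3 and Maff). The share of all tested genes with their highest CPM in this library was not counted, so this number has no baseline. Fos, Fosl2 and Atf3 had all CD38 pos libraries above all CD38 neg libraries, so their highest library could only be a CD38 pos one. The median member was 0.81 above its mean over the libraries on the log2 scale in CD38 pos replicate 3. In the other 5 libraries that median was between -0.43 and 0.11. CD38 pos replicate 1 had the lowest CPM of 4 members, Fosl1, Jun, Junb and Maff, while its Fos level was the second highest. Whether the difference between the populations itself differs from pair to pair could not be tested, since each pair holds 1 library of each population.

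Levels of different genes were set side by side as CPM per kilobase of exon. Among the 9 members with reads, Jund having none to rank, Junb was the most abundant transcript, at 35.2 ± 12.4 (SD, n = 6 libraries), followed by Fos at 20.1 ± 10.4, Batf at 16.8 ± 3.80 and Jun at 9.41 ± 4.45. Fosl2 (1.57 ± 0.22), Atf3 (0.84 ± 0.57), Maff (0.80 ± 0.23), Fosl1 (0.26 ± 0.11) and Fosb (0.20 ± 0.16) were far below. Among the 16856 genes with a read in all 6 libraries, Junb was above 89.9%, Fos above 83.6% and Fosb above 8.27%. Some neighbours in this order did not keep it: Fos was above Batf in 3 of 6 libraries, Atf3 above Maff in 4, and Fosl1 above Fosb in 5, and each of these swapped when the longest transcript was used as the length. Junb was above Fos in 5 of 6 libraries, the exception being CD38 pos replicate 1. Batf, Jun and Fosl2 were each above the next gene in 6 of 6.

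Fos and Batf exchanged places between the populations. Batf per Fos, on the scale of CPM per kilobase, was 0.55, 0.56 and 0.46 in CD38 pos replicates 1, 2 and 3 and 1.26, 1.94 and 1.69 in CD38 neg. Every CD38 pos library had more Fos than Batf and every CD38 neg library more Batf than Fos, and this held with the longest transcript as the length, at 0.61 to 0.74 against 1.66 to 2.56. Batf was lower and Fos higher in CD38 pos in pairs 2 and 3, and both were higher in pair 1. This ratio contains the Fos difference that selected the family and is no separate evidence.

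The make-up of the AP-1 transcript pool, the sum of the members in CPM per kilobase, followed Fos. Jund, listed at 0, adds nothing to this pool, so the shares are of the members with reads. Fos made up 36.6%, 26.5% and 27.0% of the pool in CD38 pos replicates 1, 2 and 3 and 18.6%, 12.5% and 17.3% in CD38 neg, that is 30.0% ± 5.69 against 16.2% ± 3.22 (SD, n = 3 each). Jun and Junb together took 38.9%, 54.2% and 56.4% against 53.2%, 58.9% and 49.4%, and these ranges overlap. There was 0.94, 0.49 and 0.48 Fos per Jun and Junb transcript in CD38 pos and 0.35, 0.21 and 0.35 in CD38 neg. The pool itself was 76.8, 82.2 and 133 in CD38 pos and 61.1, 79.5 and 77.8 in CD38 neg, so that in pair 2 its size was nearly the same while its Fos share was 26.5% against 12.5%. The pool, its shares and the Fos ratio all contain the Fos difference that selected the family and are no separate evidence.

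**Figure D3:**
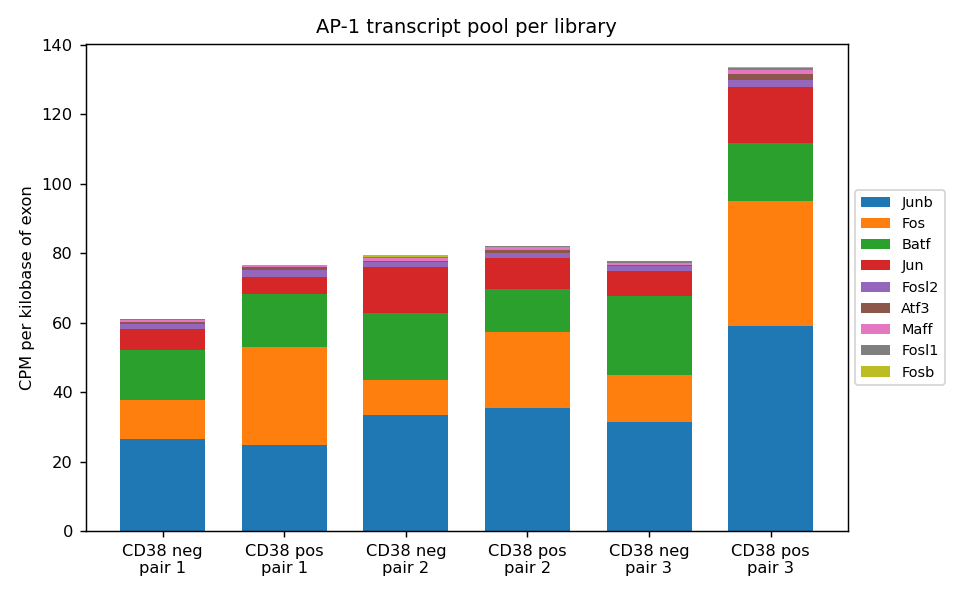
AP-1 transcripts of each library stacked by gene (vertical axis, CPM per kilobase of exon), with the CD38 neg and CD38 pos library of each pair side by side. The Fos band covers 12.5% to 18.6% of the bar in CD38 neg and 26.5% to 36.6% in CD38 pos, and the tallest bar is CD38 pos replicate 3. The Fos band holds the difference that selected the family.

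Genes around AP-1 were taken from 6 lists, of which 130 genes were tested. In edgeR's quasi-likelihood test with the pair as a block, 0 of the 130 passed an adjusted p-value of 0.05 in either direction, beside 0.0135% of all tested genes, and 15 had an unadjusted p under 0.05, beside 5.08% of all. DESeq2 and limma-voom each passed 1, Ccn2. Of the 130 genes, 21 were higher and 11 lower in CD38 pos in all 3 pairs, shares near the 13.2% and 11.3% of all tested genes. List medians lay between -0.04 and 0.17 on the log2 scale, beside 0.00 for all tested genes and 0.20 for the AP-1 members. The genes named from the lists are the ones with the largest fold changes among those of at least 5 CPM that kept 1 direction in all 3 pairs. These lists were drawn up with earlier results of these data known.

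Other bZIP genes that can stand in for or pair with AP-1 proteins had a median log2 fold change of 0.12. Of these 18 genes, 2 were higher and 2 lower in all 3 pairs (13.2% and 11.3% of all tested genes). Batf2, a relative of Batf, had -0.28 (SE 0.28), and the small Maf gene Mafg and the oxidative stress regulator Nfe2l2 had 0.22 (SE 0.20) and 0.19 (SE 0.19). Kinases and factors that act on AP-1 genes and proteins had a median of 0.01. Of these 27 genes, 3 were higher in all 3 pairs and 0 lower, beside the same 13.2% and 11.3% of all tested genes. Map2k1, the MAP kinase kinase MEK1, had 167, 234 and 182 CPM in CD38 pos against 166, 115 and 135 CPM in CD38 neg, with a fitted log2 difference of 0.49 (SE 0.22, edgeR adjusted p = 0.926). Its difference in pair 1 was 0.00. Rps6ka1, which encodes the ERK-activated kinase RSK1, had 0.39 (SE 0.21), and Mrtfb, a cofactor of serum response factor, 0.23 (SE 0.25).

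Inhibitors that MAP kinase signalling induces against itself were the list with the most genes lower in CD38 pos, at 6 of 22 in all 3 pairs, with 2 higher and a median of -0.04, where 11.3% of all tested genes were lower and 13.2% higher. Rgs1, which shortens G protein signals, had 33.3, 21.2 and 53.2 CPM in CD38 pos against 49.3, 73.3 and 76.2 CPM in CD38 neg. The fitted log2 difference was -0.95 (SE 0.25, edgeR adjusted p = 0.764). Dusp16, a phosphatase of JNK, had -1.18 (SE 0.37, edgeR adjusted p = 0.893), and Spred1, an inhibitor of Ras signalling, had -0.78 (SE 0.25, edgeR adjusted p = 0.893). That each of the 3 kept 1 direction in all 3 pairs follows from the rule that named them, and their adjusted p-values were above the threshold.

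Textbook AP-1 targets had a median of 0.17, and 5 of the 20 tested were higher and 1 lower in all 3 pairs (13.2% and 11.3% of all tested genes). Mmp9, a matrix metalloprotease that neutrophils also store, had 504, 456 and 314 CPM in CD38 pos against 334, 283 and 175 CPM in CD38 neg. On the log2 scale it was higher by 0.71 (SE 0.19, edgeR adjusted p = 0.764). Fn1, encoding fibronectin, had 0.91 (SE 0.26, edgeR adjusted p = 0.888) and Vim, encoding vimentin, 0.47 (SE 0.21, edgeR adjusted p = 0.926). Ccn2, named after its values were seen, had 22, 19 and 33 reads in CD38 pos and 0 in each CD38 neg library (edgeR adjusted p = 0.0679). The median of the list was the same with Ccn2 set at the bound that 3 reads per library allow. Ccn2 lies far above that median either way, so the median could not move and this is no check.

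Other early response and cell-handling genes, many of which the stimuli of Fos are known to induce, had a median of 0.11. Of 23 tested, 4 were higher and 2 lower in all 3 pairs (13.2% and 11.3% of all tested genes). The antiproliferative gene Btg2 had 0.53 (SE 0.20, edgeR adjusted p = 0.925), and the stress genes Gadd45b and Gadd45g had 0.60 (SE 0.29) and 0.50 (SE 0.25). In CD38 pos replicate 3 the median gene of this list was 0.11 above its mean, beside 0.81 for the AP-1 members.

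The messengers made by CD38 act on calcium release from internal stores, and the last list held genes of calcium handling. Of its 20 tested genes, 5 were higher and 0 lower in all 3 pairs (13.2% and 11.3% of all tested genes), with a median of 0.14. These 5 include Cd38, whose protein defined the sort, so its direction is no result. Cd38 itself had 37.0, 46.3 and 58.3 CPM in CD38 pos against 24.2, 35.6 and 23.9 CPM in CD38 neg, with paired differences of 0.61, 0.38 and 1.28. Cdkn1c, which encodes the cell cycle inhibitor p57 and is named as an end point of the study, had 2.16, 2.72 and 7.78 CPM against 0.71, 2.0 and 4.46 CPM, and its paired differences were 1.45, 0.42 and 0.79 (fitted value 0.89, SE 0.38, edgeR adjusted p = 0.926). Its groups overlap, with CD38 neg replicate 3 above CD38 pos replicates 1 and 2. The receptor gene Itpr2 and the store-entry channel gene Orai1 had 0.60 (SE 0.28) and 0.21 (SE 0.25).

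**Figure D4:**
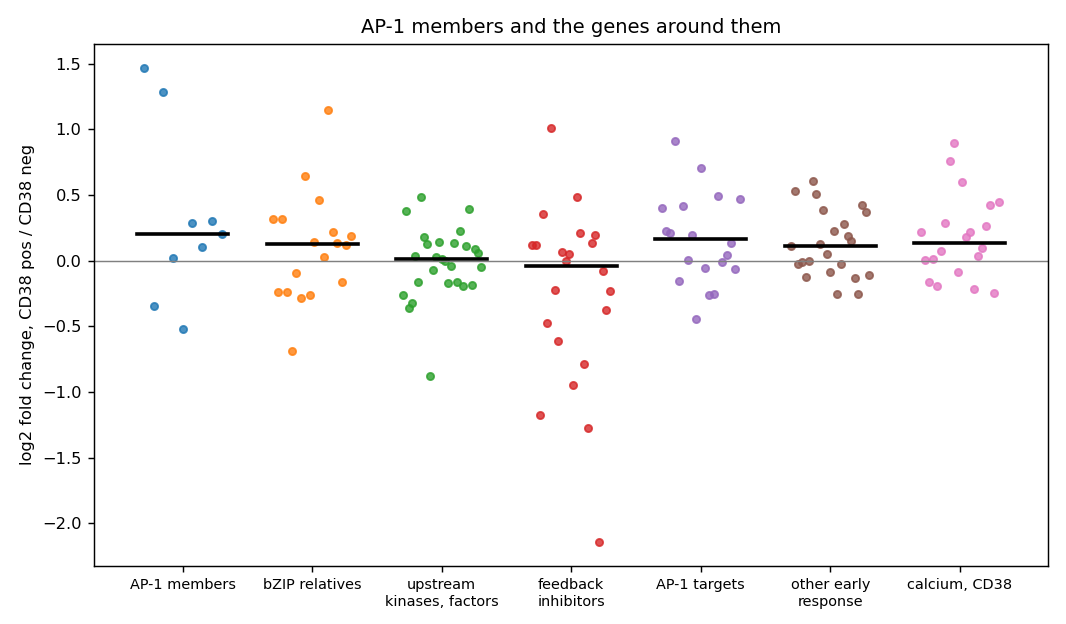
Log2 fold change between CD38 pos and CD38 neg (vertical axis) of each tested gene of the AP-1 family and of the 6 lists around it, with black bars at the list medians. Ccn2, at 0 reads in CD38 neg, is left out of the points. Fos (1.28) and Atf3 (1.47) are the highest points of the AP-1 family, and the feedback inhibitors reach the lowest values.

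The transcripts whose profile over the 6 libraries was most like that of Fos were not AP-1 genes. Among 8732 other genes with at least 10 CPM on average, 19 had a Pearson r above 0.9 with Fos in log2 CPM, a description over 6 libraries that are paired and share the populations. The closest 6 were Pqlc3 (0.98), Pmaip1 (0.95), Tmem43 (0.95), Pigb (0.95), Ptger2 (0.94) and Dram2 (0.94). In each of these 6 all CD38 pos libraries were above all CD38 neg libraries. The likeness thus contains the Fos difference that selected the family and is no separate evidence. Pmaip1, which encodes the death-promoting protein Noxa, had paired differences of 0.94, 0.55 and 1.07, and Ptger2, a prostaglandin E2 receptor, 0.72, 0.70 and 0.73. Of the AP-1 members, Fosl2 (0.89) and Atf3 (0.88) would rank 25 and 36 among these genes. Junb had 0.50, Maff 0.35, Jun 0.13, Fosb 0.03, Fosl1 -0.27 and Batf -0.37.

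Total counts were 16771180 to 18558610 per library, where 3 reads correspond to 0.17 to 0.18 CPM. Counting error is thus small for Fos, Jun, Junb, Batf and Fosl2 and large for Fosl1 and Fosb. It is not small either for Atf3, with 26, 11 and 12 reads in CD38 neg, or for Maff, with 27, 39 and 31. All 11 genes of the HSC list had reads, and the list includes Cd34 and Cd48, for which the sort was negative. Its sums were 1097 to 1757 CPM in CD38 pos and 1256 to 2442 CPM in CD38 neg, higher in 1 of 3 pairs. Ly6a, Hlf and Meis1 were lower in CD38 pos in all 3 pairs, and Slamf1 was higher in all 3. Genes outside the gate had reads too: Cd34 averaged 246 and 237 CPM and Cd48 85.7 and 77.5 CPM in CD38 pos and CD38 neg. The neutrophil gene S100a8 averaged 41735 and 43444 CPM, and the summed 12 granulocyte and monocyte genes ran from 79427 to 174431 CPM in CD38 pos and from 85522 to 137826 in CD38 neg. That sum was lower in CD38 pos in pairs 2 and 3 and higher in pair 1, and 4 of the 12 genes (Lcn2, Lyz2, Csf1r and Fcer1g) were higher in all 3 pairs. Of 10 stromal genes, all with a read somewhere, the sum was 188, 29.0 and 145 CPM in CD38 pos and 130, 36.9 and 41.6 CPM in CD38 neg replicates 1, 2 and 3, higher in pairs 1 and 3. Cxcl12 made up most of that sum except in CD38 pos replicate 2. Sparc, of the same list, was higher in CD38 pos in all 3 pairs, at 15.2, 7.47 and 9.05 against 7.03, 1.39 and 2.14 CPM (log2 difference 1.82, SE 0.33, edgeR adjusted p = 0.125), Dcn, not tested, had all CD38 pos libraries above all CD38 neg libraries, and Col1a1 had all below. Sums of 10 endothelial genes were 102 to 174 against 106 to 146 CPM, with Sox17 at 0 or 1 read and Cdh5 at 0 to 12 reads. Of the 8 tested, 4 (Pecam1, Flt1, Ramp2 and Stab2) were higher in CD38 pos in all 3 pairs. Ramp2 had 2.40, 6.28 and 4.97 against 0.66, 1.22 and 0.98 CPM (log2 difference 2.20, SE 0.40, edgeR adjusted p = 0.125). The 10 dendritic cell and macrophage genes summed to 670, 790 and 773 CPM in CD38 pos against 653, 761 and 753 CPM in CD38 neg. That sum was higher in 3 of 3 pairs by a small margin, but its genes did not move together. Of the 10, 3 (C1qa, C1qb and Vcam1) were higher in all 3 pairs. In pair 2 Vcam1 had 427 against 144 CPM, while Cd74 had 48.0 against 286 CPM and H2-Aa 93.9 against 162 CPM. The 12 B and plasma cell genes were at 364 to 1091 against 1237 to 3555 CPM and lower in 3 of 3 pairs. In that list 1 gene, Igha, was past the threshold (edgeR adjusted p = 0.00246). The sums of erythroid (2650 to 9302 against 3845 to 7733 CPM), megakaryocyte (171 to 301 against 178 to 200 CPM) and T and NK cell genes (147 to 346 against 197 to 305 CPM) overlapped. Within the megakaryocyte list, Vwf had 28.1, 43.6 and 59.9 against 15.8, 24.4 and 17.5 CPM (log2 difference 1.15, SE 0.24, edgeR adjusted p = 0.293). In these lists Vwf, Alas2 and Klrb1c were higher in CD38 pos in all 3 pairs, and Tfrc, Ermap and Ncr1 were lower in all 3. The part of all these marker genes in the AP-1 values was not tested. In pooled RNA, more cells with Fos and more Fos per cell cannot be told apart.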

How the data were processed

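The authors deposited unnormalised counts of reads over Ensembl genes, 1 file for each of the 6 libraries. The submitters' processing notes name cutadapt, STAR and HTSeq 0.6.1p1 and the build GRCm38 (mm10), without their settings; the strand setting and annotation release are not given in the sources used here. Symbols matched 49326 of 49585 identifiers, and positions and exon lengths came from GENCODE M21 on GRCm38. Genes were filtered with filterByExpr, leaving 14785, and libraries were scaled by TMM. Tests used edgeR 4.0.16 in R 4.3.3 (quasi-likelihood, pair plus population, Benjamini-Hochberg adjustment over all tested genes, threshold 0.05). Paired differences are of log2 CPM with a prior count of 2, and CPM per kilobase used the union of exons. The pairing comes from the design text; after subtracting each population's mean, the 2 libraries of a pair correlated across genes at 0.34, 0.12 and 0.24. No 2 libraries of a population agreed within counting noise (chi-square over its degrees of freedom 51.4 to 116). Alternatives were the fit without the block, DESeq2 1.42.0, limma-voom (limma 3.58.1), other scalings and filters, and leaving out each pair. The members and lists were chosen with earlier results of these data known. Named list genes were those past the threshold or, up to 3 per list, those with the largest fold changes at a mean of at least 5 CPM and 1 direction in all 3 pairs, with Cd38, Cdkn1c and the 6 genes most like Fos. Upstream sequences and motifs came from RefSeq on GRCm38.p6, and the 50 bases after each start were left out. P-values of the main fit rest on the spread that remains after pair and population are fitted. Each library is a pool of 10 mice, so the spread between single mice is not measured.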

Additional observations from a re-analysis of the deposited data

How the results depend on the processing

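Of 88 values of the members under the alternatives, 7 changed sign: 4 for Fosb and 1 each for Jun, Junb and Maff, the last 3 without pair 3. Fos ranged from 1.22 to 1.35 on the log2 scale. Of the members, 3 were higher in all 3 pairs; leaving out a pair gave 3 to 5. Without the replicate block the fold changes of Fos and Atf3 kept their direction, and 0 genes passed the threshold for the populations (417 at an unadjusted p under 0.05) in place of 2. That count was 7 with DESeq2 size factors, 0 with unscaled totals (595 at an unadjusted p under 0.05), 11 with DESeq2, 80 with no filter, 13 at a mean of at least 10 counts, and 2, 41 and 12 without pairs 1, 2 and 3. Genes differing between pairs, 17, became 7 with unscaled totals, 329 with DESeq2, 694 with no filter, 29 with the mean filter, and 5, 933 and 153 without pairs 1, 2 and 3. Of the 6 lists, 1 gene passed with DESeq2 size factors, DESeq2, limma-voom and the mean filter, each time Ccn2, 2 with no filter (Ccn2 and Rgs1), and 0 to 2 without a pair. With the longest transcript as the length, 5 of 8 steps in the order of levels were kept. The cause of these shifts was not tested. Differences of a few reads in Fosl1 and Fosb were not detectable at this depth.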
